A study of Mus musculus with 6 samples.

Results

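The histone lysine methylation enzymes examined here are 35 autosomal mouse genes, 23 for writers (the methyltransferases, with the core subunits of Polycomb repressive complex 2, PRC2) and 12 for erasers (the demethylases), taken by exact gene symbol from a table of 21956 genes. All 35 were found, each under 1 gene ID, and all 35 had enough counts to be tested. Their transcripts were counted by RNA sequencing of 6 libraries labelled as lung tissue, 3 from a group called Aalter and 3 from a group called VE. The title of the series speaks of alpha tocopherol (a form of vitamin E) in airway inflammation of the allergic kind, of the kinase LKB1 and of the death of group 2 innate lymphoid cells by ferroptosis, and the comparison asks how transcripts differ between VE and Aalter. The labels spell out neither group name, and strain, genotype, age, dose and any treatment shared by both groups are not given there.

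Methyl groups on the lysines of histones H3 and H4 mark the state of a gene. Methylation of H3K4 (a lysine of histone H3), H3K36 and H3K79 goes with active promoters, enhancers and transcribed gene bodies, and methylation of H3K27, H3K9 and H4K20 with silencing and compaction. SET-domain enzymes and the unrelated enzyme DOT1L write the marks with S-adenosylmethionine as methyl donor, while the flavin-dependent enzyme LSD1 and the Jumonji enzymes, which use iron and alpha-ketoglutarate, remove them. In leukocytes these enzymes are known for their parts in lineage choice, lymphocyte proliferation and the inducible genes of macrophages.

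Library totals ran from 11617074 to 16205053 estimated counts. Aalter-1 stood apart from the other Aalter libraries: over all tested genes it lay nearer to the VE mean than to the mean of Aalter-2 and Aalter-3 in 57.2% of genes, and over the histone methylation enzymes in 15 of 35. Results are therefore given with and without it, and values per library follow the order of the library numbers. Since Aalter-1 was singled out by these same data, leaving it out can narrow the spread within Aalter. The p-values without Aalter-1 are therefore descriptive only. The material was rich in leukocyte transcripts, with the neutrophil gene S100a9 at 12324 and 19160 CPM (counts scaled to library size) on average in Aalter and VE, against 13.5 and 15.9 CPM for Sftpc, the defining gene of alveolar type 2 cells. That pair is an extreme one. The epithelial gene Scgb1a1 averaged 273 and 100 CPM, and the neutrophil gene Mmp9 242 and 364 CPM. Summed over each list in Aalter, neutrophil markers reached 25750 to 30045 CPM and lung epithelial markers 261 to 429.6 CPM. Whether each library was a separate animal is not labelled, and the p-values therefore cover only the spread among these samples, possibly a technical one. In such bulk samples, fewer cells of a type and less RNA per cell cannot be told apart.

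Of the 35 enzymes 19 fell and 1 rose in VE, at an adjusted p under 0.05 by the quasi-likelihood test of edgeR (Benjamini-Hochberg over all genes tested), the test behind every adjusted p below. Over all 12551 tested genes, 19.5% were lower and 12.8% higher by the same rule. Fold changes are VE relative to Aalter. The fallers were the 7 H3K4 writers of the KMT2 and SETD1 families, the H3K4 erasers Kdm1a, Kdm5a and Kdm5b, the H3K36 erasers Kdm2a and Kdm2b, Dot1l, Prdm2, Kmt5b, Kdm3b, Kdm4a, Kdm4b and Kdm6b, and Kdm4c was the riser. The groups did not overlap in 19 enzymes that were lower and 2 that were higher, where 26.3% and 25.6% of all tested genes did so. A log2 fold change under -1 with a passed test was seen in 9 enzymes and in 7.96% of all tested genes. The median log2 fold change was -0.35 over the enzymes and 0.023 over all tested genes.

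Without Aalter-1, 19 fell and 5 rose (background 28.5% and 27.8%), the risers being Kmt5a, Suz12, Nsd1, Ezh2 and Kdm4c. Leaving out Aalter-2, Aalter-3, VE-1, VE-2 or VE-3 left 9, 7, 6, 3 and 9 fallers, where 6.29%, 4.85%, 3.56%, 1.36% and 6.22% of all tested genes fell. No riser passed in these fits, which is given without a share over all genes and is not read as particular to the enzymes. At an unadjusted p under 0.05, 19 enzymes were lower in each of these fits, against 19.6%, 19.9%, 21.0%, 20.2% and 22.7% of all tested genes. With each library's trends on the GC content and length of transcripts removed, 7 fell and 3 rose, against 12.7% and 13.5% of all tested genes. Those 7 were Kmt2a, Kmt2b, Kmt2d, Setd1a, Kdm1a, Kdm2b and Kdm4b.

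**Figure D1:**
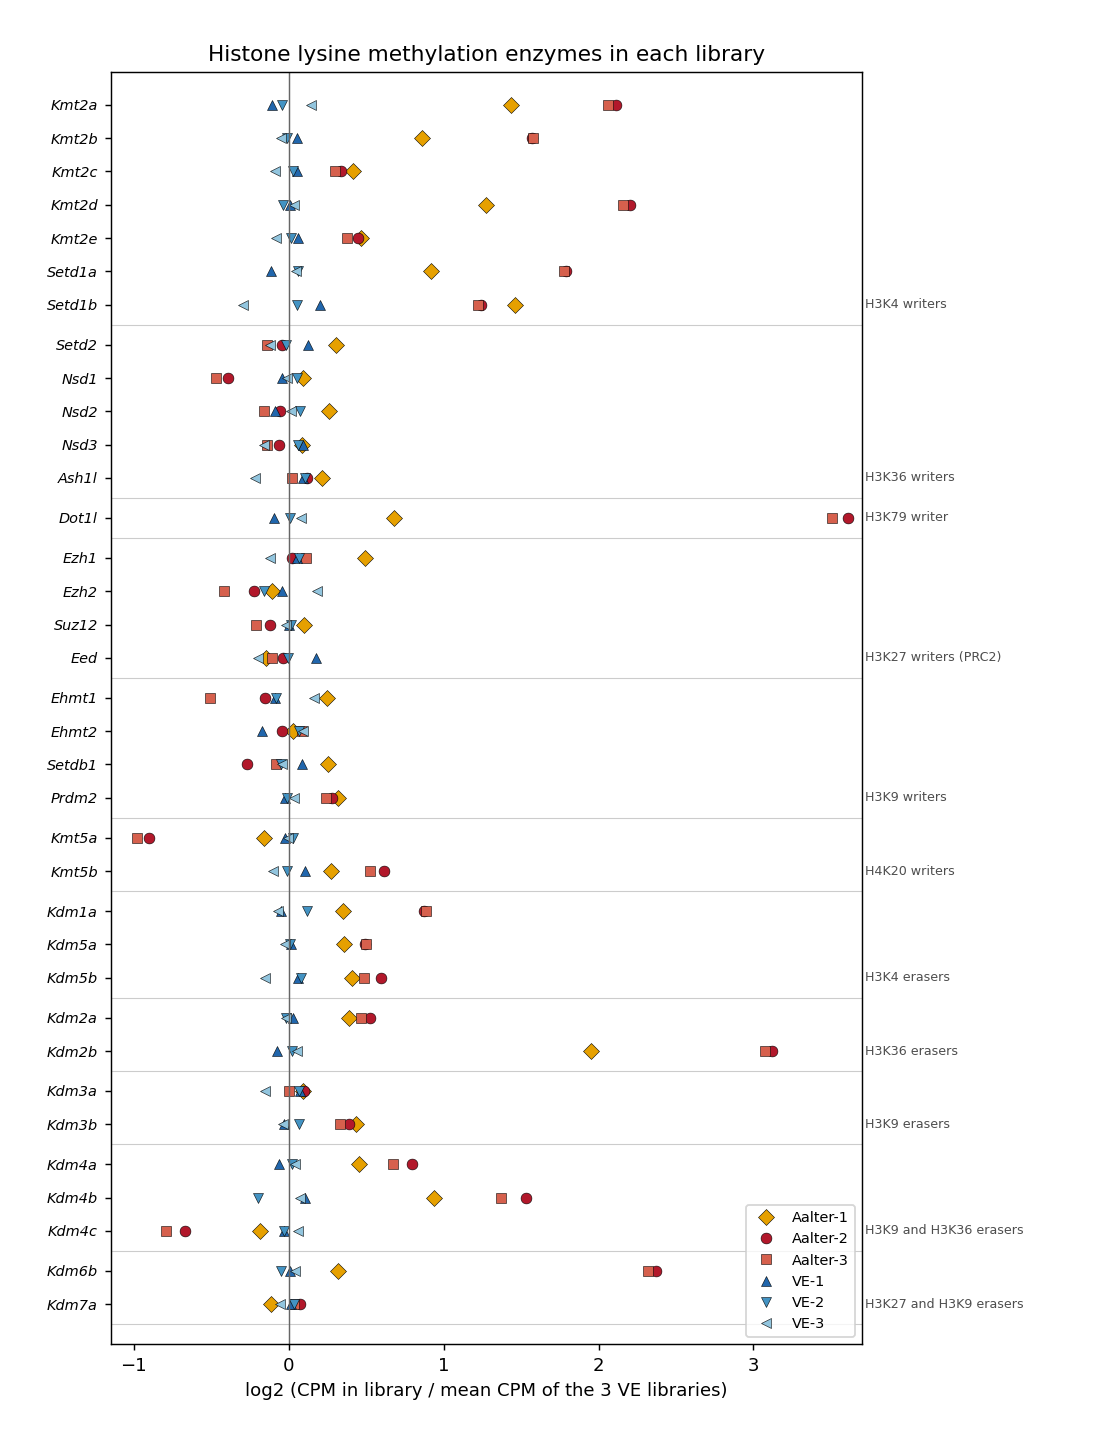
Log2 ratio of the CPM in each library to the mean CPM of the VE libraries, for 35 enzymes ordered by mark (each name at the right labels the block of genes above its line). The H3K4 writers, Dot1l, Kdm2b and Kdm6b lie to the right in Aalter-2 and Aalter-3, with Aalter-1 at 0.68 for Dot1l, and the H3K36 writers and PRC2 subunits lie around 0.

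All 7 H3K4 writers of the KMT2 and SETD1 families were lower in VE, with log2 fold changes from -1.94 to -0.35 and a median of -1.37. Their summed level was 602 to 761 CPM across Aalter and 346 to 366 CPM in VE. Kmt2a (MLL1), which keeps developmental and haematopoietic promoters active, stood at 113, 180.1 and 174 CPM in Aalter against 38.6, 40.3 and 46.0 CPM in VE. Every Aalter library was thus above every VE library, with Aalter-1 the lowest Aalter library. The log2 fold change was -1.90 ± 0.19 (SE), with an adjusted p of 0.00379. Kmt2d (MLL4), a writer of monomethylation at enhancers, stood at 66.0, 126 and 122 CPM in Aalter against 27.4, 26.6 and 27.9 CPM in VE, again with Aalter-1 in between (log2 fold change of -1.94 ± 0.24, adjusted p = 0.00557). Setd1a, a catalytic subunit of a complex that trimethylates H3K4 at active promoters, stood at 25.4, 46.4 and 46.0 CPM in Aalter against 12.4, 14.0 and 13.9 CPM in VE (log2 fold change of -1.55 ± 0.23, adjusted p = 0.00801), in counts that may be shared with the overlapping gene Gm49388. Kmt2b (MLL2), the close relative of Kmt2a, also had Aalter-1 as its lowest Aalter library, with 38.5, 62.9 and 63.1 CPM in Aalter against 22.0, 21.0 and 20.4 CPM in VE (log2 fold change of -1.37 ± 0.19, adjusted p = 0.00663).

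In the other H3K4 writers Aalter-1 was the highest Aalter library. Setd1b, the paralogue of Setd1a, stood at 29.4, 25.2 and 24.8 CPM in Aalter against 12.3, 11.1 and 8.70 CPM in VE, with no overlap between the groups (log2 fold change of -1.31 ± 0.16, adjusted p = 0.00492). Kmt2c (MLL3), the enhancer enzyme paired with Kmt2d, fell too, with 143, 136 and 133 CPM in Aalter against 112, 109.6 and 101 CPM in VE (log2 fold change of -0.35 ± 0.086, adjusted p = 0.0226). Kmt2e (MLL5), a family member whose own enzyme activity is in doubt, stood at 187, 185 and 176 CPM in Aalter against 142, 137 and 128 CPM in VE (log2 fold change of -0.43 ± 0.086, adjusted p = 0.0139). In both genes the Aalter libraries lay close together and above VE. All 7 writers passed without Aalter-1, and 5, 5, 4, 2 and 5 passed without Aalter-2, Aalter-3, VE-1, VE-2 and VE-3. After removal of the GC content and length trends, 4 passed, with Kmt2a at -1.35, Kmt2d at -0.92, Setd1a at -0.85 and Kmt2b at -0.49, while Kmt2c was at 0.032 (adjusted p = 0.816).

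Of the erasers of H3K4 methylation taken here as members, 3 of 3 fell, while among the further demethylases Kdm1b, a relative of Kdm1a named after its value was seen, did not pass (log2 fold change of -0.19 ± 0.15, adjusted p = 0.358). Kdm1a (LSD1), which removes mono- and dimethylation, stood at 54.6, 78.3 and 79.2 CPM in Aalter against 41.3, 46.3 and 40.7 CPM in VE (log2 fold change of -0.72 ± 0.16, adjusted p = 0.0166). Kdm5a, a Jumonji eraser of di- and trimethylation, stood at 194, 213 and 214 CPM in Aalter against 153, 152 and 149 CPM in VE (log2 fold change of -0.45 ± 0.086, adjusted p = 0.0124), and its relative Kdm5b at 58.1, 66.3 and 61.5 CPM in Aalter against 45.7, 46.4 and 39.4 CPM in VE (log2 fold change of -0.50 ± 0.10, adjusted p = 0.0146). In each of them Aalter-1 was the lowest Aalter library and still above all VE libraries. The 3 passed without Aalter-1, and none passed without any one of the other libraries (adjusted p of 0.0680 to 0.0725 for Kdm1a, 0.0510 to 0.0716 for Kdm5a and 0.0530 to 0.0642 for Kdm5b), where all were at an unadjusted p under 0.05. With the trends removed Kdm1a kept its call, at -0.68 (adjusted p = 0.0274), and Kdm5a (-0.25) and Kdm5b (-0.22) did not.

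Dot1l, Kdm2b and Kdm6b were also much lower in VE, and in Dot1l and Kdm6b the difference was carried by Aalter-2 and Aalter-3. Dot1l, the H3K79 methyltransferase, had 1330, 7432 and 9617 estimated counts in Aalter against 663, 608 and 781 in VE. On the normalised scale it stood at 81.0, 619.7 and 576 CPM in Aalter against 47.5, 50.9 and 53.5 CPM in VE. Aalter-2 and Aalter-3 were far above every other library, while Aalter-1 was above VE by 0.68 on the log2 scale. The log2 fold change was -3.07 ± 0.78 (adjusted p = 0.0366), or -3.56 without Aalter-1 (adjusted p = 1.31e-10), the library that these data had singled out. Kdm6b (JMJD3), an H3K27 demethylase that inflammatory stimuli induce in macrophages, also had Aalter-1 just above the VE libraries, at 298, 1233 and 1189 CPM in Aalter against 239.6, 231 and 245 CPM in VE. Its log2 fold change was -1.93 ± 0.52 (adjusted p = 0.0376), or -2.34 without Aalter-1 (adjusted p = 3.44e-10), and Aalter-1 exceeded the VE mean by 0.32. Leaving out Aalter-2, Aalter-3, VE-1, VE-2 or VE-3 ended both calls, with an adjusted p of 0.0831 to 0.108 for Dot1l and 0.0943 to 0.125 for Kdm6b. So did testing without a filter on low counts (adjusted p of 0.0766 and 0.0814). With the trends removed neither passed (Dot1l -2.28, adjusted p = 0.0552, and Kdm6b -1.03, adjusted p = 0.0946).

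Kdm2b, a demethylase of H3K36 that also brings a form of Polycomb complex 1 to CpG islands, was at 105, 236 and 228 CPM in Aalter against 25.7, 27.5 and 28.1 CPM in VE. Here Aalter-1 was well above VE, though below Aalter-2 and Aalter-3, and the log2 fold change was -2.81 ± 0.31 (adjusted p = 0.00435). It passed in all 17 alternative fits, with log2 fold changes from -3.10 to -2.34, and at -2.41 with the trends removed. Kmt2a was the other enzyme that passed in all of them (-2.09 to -1.33). Kdm2a, the paralogue of Kdm2b, fell too, with 98.6, 109 and 104 CPM in Aalter against 76.9, 74.7 and 74.7 CPM in VE (log2 fold change of -0.46 ± 0.081, adjusted p = 0.0103). Its call was lost without Aalter-3, VE-1 or VE-2 (adjusted p up to 0.0664) and with the trends removed (-0.16). In GENCODE vM21 (mm10), Dot1l (ENSMUSG00000061589) lies on chromosome 10 from 80755206 to 80795461, Kdm6b (ENSMUSG00000018476) lies on chromosome 11 from 69398508 to 69413675, Kdm2b (ENSMUSG00000029475) lies on chromosome 5 from 122870665 to 122989823 and Kmt2a (ENSMUSG00000002028) lies on chromosome 9 from 44803355 to 44881296. Each is a protein-coding gene, counted as a whole.

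**Figure D2:**
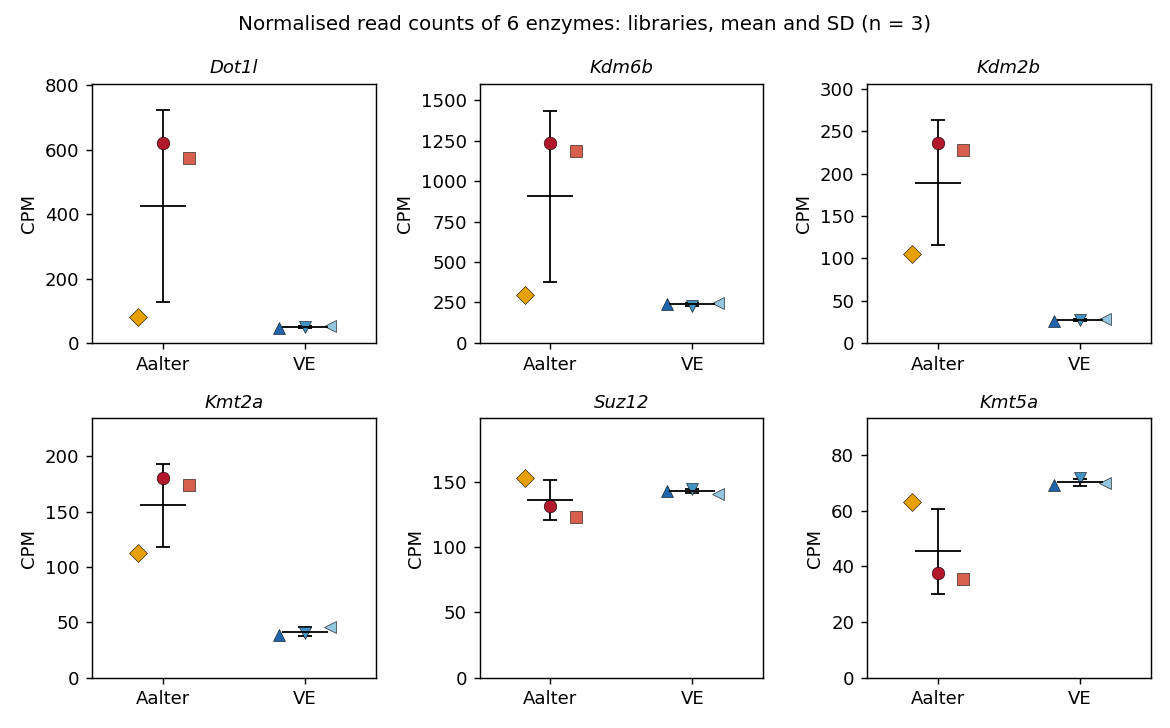
CPM of selected enzymes on linear axes from 0, with points for libraries (Aalter-1 as a diamond) and bars for the mean and SD (n = 3). Aalter-1 lies near VE in Dot1l (81.0 CPM), Kdm6b (298 CPM) and Kmt5a (63.0 CPM) and midway in Kdm2b and Kmt2a.

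In the fit on the groups alone, the writers of H3K36 methylation did not pass in either direction, 0 of 5, also at an unadjusted p under 0.05 and with DESeq2 and limma-voom (0 in each). Setd2, which trimethylates H3K36 behind the elongating polymerase, stood at 194, 153 and 143 CPM in Aalter against 171, 155 and 145 CPM in VE (log2 fold change of -0.055 ± 0.14, adjusted p = 0.781). The groups overlapped, and the 95% interval of its log2 fold change ran from -0.38 to 0.27. Nsd1, a dimethylating enzyme, stood at 113, 80.3 and 76.1 CPM in Aalter against 102, 109.7 and 105 CPM in VE, with Aalter-1 above the VE libraries and the other Aalter libraries below them (log2 fold change of 0.23 ± 0.15, adjusted p = 0.267). It was higher in VE without Aalter-1 (0.43, adjusted p = 0.000175) and with the trends removed (0.56, adjusted p = 0.0291). With the trends removed and Aalter-1 left out, a setting added after seeing the data, Nsd1, Nsd3 and Setd2 were called higher in VE. The count of all genes that rose in that fit is given with the other settings below. Nsd2 (-0.028 ± 0.13), Nsd3 (0.035 ± 0.11) and Ash1l (-0.12 ± 0.11), which also place dimethylation, had adjusted p-values of 0.881, 0.831 and 0.426, with intervals of -0.32 to 0.27, -0.22 to 0.29 and -0.39 to 0.14.

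None of the 4 core PRC2 genes, which together write H3K27 methylation, passed the test, nor did any at an unadjusted p under 0.05 or with DESeq2 or limma-voom (0 and 0 calls). Suz12, the scaffold subunit, stood at 153, 132 and 123 CPM in Aalter against 143, 144 and 141 CPM in VE. The VE libraries lay within the range of the Aalter libraries, with a log2 fold change of 0.073 ± 0.10 and a 95% interval of -0.17 to 0.31. Ezh2, the catalytic subunit of dividing cells, stood at 28.4, 26.1 and 22.8 CPM in Aalter against 29.6, 27.3 and 34.7 CPM in VE, and its paralogue Ezh1, more usual in resting cells, at 31.7, 22.8 and 24.4 CPM in Aalter against 23.4, 23.5 and 20.7 CPM in VE. Ezh2 was at 0.25 ± 0.13 (adjusted p = 0.181) and Ezh1 at -0.22 ± 0.15 (adjusted p = 0.268), with intervals of -0.062 to 0.55 and -0.57 to 0.12. Eed, the subunit that reads the mark, averaged 61.5 ± 2.45 CPM in Aalter against 65.7 ± 8.46 CPM in VE (SD, n = 3) (log2 fold change of 0.10 ± 0.11, adjusted p = 0.528). Without Aalter-1, Ezh2 (0.33, adjusted p = 0.0293) and Suz12 (0.17, adjusted p = 0.0380) were higher in VE, and with the trends removed as well they were at -0.055 and 0.029. The summed level of the 4 genes was 231 to 272 CPM across Aalter and 254 to 271 CPM in VE.

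Among writers of H3K9 methylation 1 of 4 fell. Prdm2 (RIZ) stood at 125, 122 and 119 CPM in Aalter against 98.6, 99.6 and 103 CPM in VE, a narrow gap without overlap (log2 fold change of -0.28 ± 0.078, adjusted p = 0.0328), which was at 0.11 with the trends removed (adjusted p = 0.342) and did not pass without Aalter-2, Aalter-3, VE-1, VE-2 or VE-3 (adjusted p of 0.0698 to 0.126). Ehmt1 (GLP) and Ehmt2 (G9a), which dimethylate H3K9 as a pair, were at 0.10 ± 0.20 (adjusted p = 0.716) and -0.025 ± 0.11 (adjusted p = 0.873). Setdb1, which silences retroelements, averaged 18.6 ± 3.48 CPM in Aalter against 18.8 ± 1.02 CPM in VE (SD, n = 3) (log2 fold change of 0.016 ± 0.15, adjusted p = 0.945). In these genes the groups overlapped. Ehmt2, whose longest transcript had the highest GC content of the enzymes at 60.8%, was higher in VE with the trends removed (0.66, adjusted p = 0.0211). With the trends removed and Aalter-1 left out, Ehmt1, Ehmt2 and Setdb1 were called higher in VE.

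Of the 2 writers of H4K20 methylation 1 fell. Kmt5a, which monomethylates H4K20 in step with the cell cycle, was lower in each Aalter library than in any VE library, at 63.0, 37.5 and 35.6 CPM in Aalter against 69.1, 71.6 and 69.9 CPM in VE. Its log2 fold change of 0.63 ± 0.21 did not pass (adjusted p = 0.0601), but did with DESeq2 (adjusted p = 0.0198), with limma-voom (0.0463) and without Aalter-1 (0.94, adjusted p = 5.14e-07). No call was made for Kmt5a without Aalter-2, Aalter-3, VE-1, VE-2 or VE-3, with library size alone or without a filter on low counts. Nor was one made with the trends removed (0.55, adjusted p = 0.0507). Kmt5b, which adds the further methyl groups, fell with 72.3, 91.6 and 85.8 CPM in Aalter against 64.4, 59.2 and 55.6 CPM in VE (log2 fold change of -0.48 ± 0.11, adjusted p = 0.0216). That call was lost without Aalter-2, Aalter-3, VE-1, VE-2 or VE-3 (adjusted p of 0.0648 to 0.0876) and with the trends removed (-0.32, adjusted p = 0.102). Of 10 cell cycle markers 3 rose and 2 fell, against 12.8% and 19.5% of all tested genes. The markers summed to 711 to 763 CPM across Aalter and 731 to 809.8 CPM in VE, and none was at 0 in any library. Without Aalter-1 6 rose and 3 fell, where 27.8% and 28.5% of all tested genes did so. Without one of the other libraries 0 to 1 fell, where 1.36% to 6.29% of all tested genes fell. None rose there, which is given without a share over all genes and is not read as particular to these markers. The part of the cell cycle in the values of Kmt5a and Ezh2 was not tested.

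Erasers of H3K9 methylation, some of which also act on H3K36, moved in both directions. Kdm4b stood at 20.2, 30.6 and 27.3 CPM in Aalter against 11.4, 9.22 and 11.1 CPM in VE (log2 fold change of -1.30 ± 0.18, adjusted p = 0.00647), and Kdm4a at 31.7, 40.1 and 36.8 CPM in Aalter against 22.1, 23.4 and 23.8 CPM in VE (log2 fold change of -0.65 ± 0.11, adjusted p = 0.0103). Both had Aalter-1 between VE and the other Aalter libraries. Kdm4c, another member of this family of H3K9 and H3K36 erasers, was the enzyme that rose, with 34.2, 24.3 and 22.4 CPM in Aalter against 37.9, 38.0 and 40.4 CPM in VE (log2 fold change of 0.52 ± 0.16, adjusted p = 0.0457). That call was lost with scaling to library size alone (adjusted p = 0.148). The change was at 0.73 without Aalter-1 (adjusted p = 1.98e-05) and at 0.46 with the trends removed (adjusted p = 0.0428), and did not pass without any one of the other libraries (adjusted p of 0.119 to 0.158). Kdm4b lost its call without VE-2 but not without any other library (adjusted p = 0.0514), and Kdm4a lost it without Aalter-3, VE-1 or VE-2 (up to 0.0653) and with the trends removed (-0.25). Kdm3b, a mono- and dimethyl eraser, fell with 66.8, 64.6 and 62.3 CPM in Aalter against 48.4, 51.7 and 48.2 CPM in VE (log2 fold change of -0.39 ± 0.081, adjusted p = 0.0160), but was at 0.084 with the trends removed (adjusted p = 0.548) and at an adjusted p of 0.0588 to 0.0725 without one library other than Aalter-1. Its relative Kdm3a, which is induced by low oxygen, was at -0.066 ± 0.10 (adjusted p = 0.619). Kdm7a, an eraser of H3K9 and H3K27 dimethylation, averaged 339.5 ± 23.3 CPM in Aalter against 339.6 ± 11.6 CPM in VE (SD, n = 3), with a 95% interval of its log2 fold change of -0.22 to 0.22.

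**Figure D3:**
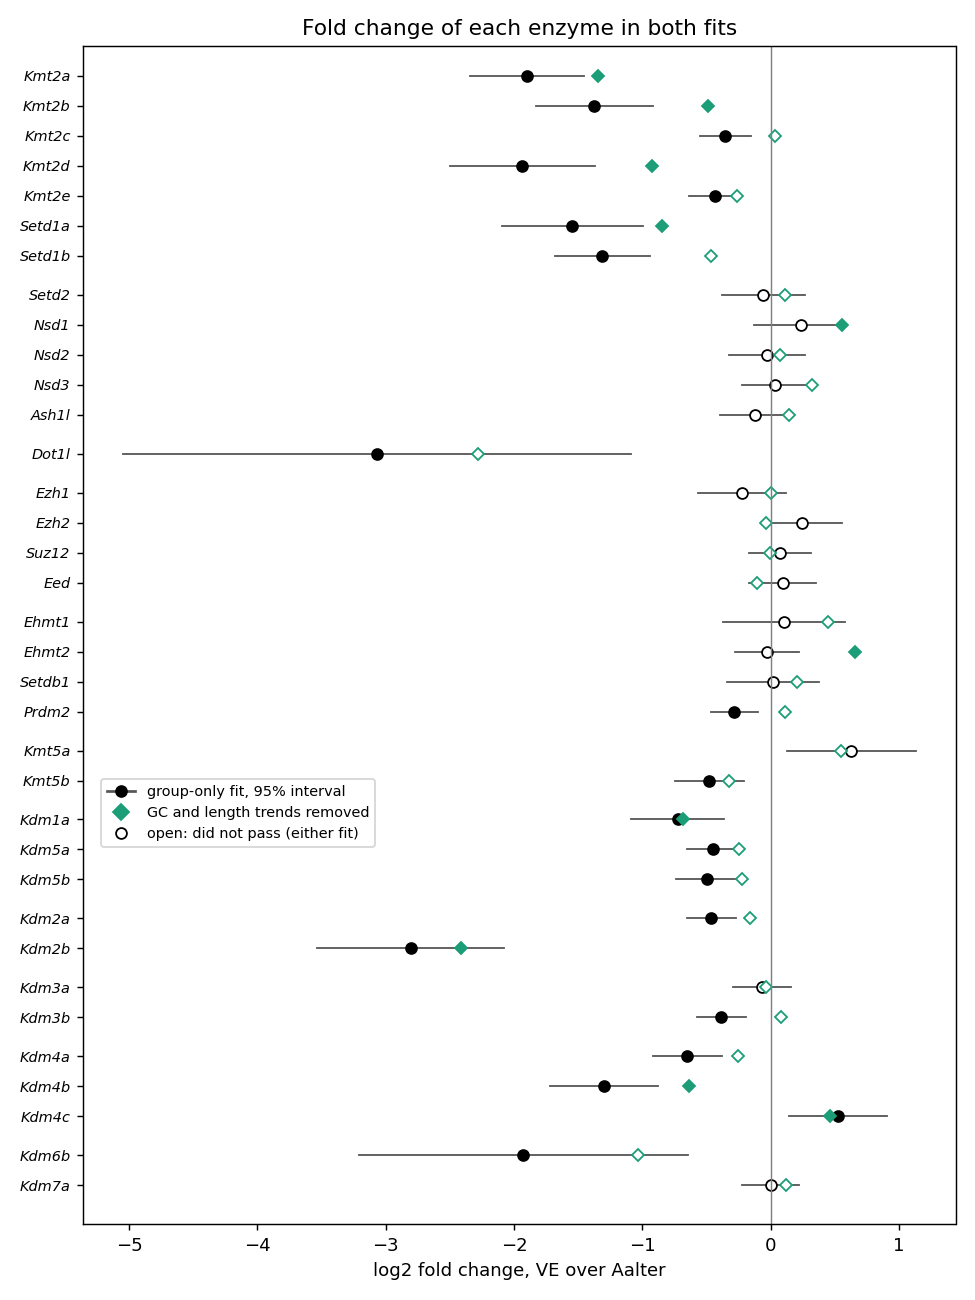
Log2 fold change of each enzyme, VE over Aalter, in the fit on the groups alone (circles with 95% intervals) and after removal of the trends on GC content and length (diamonds), where filled symbols passed at an adjusted p under 0.05. Most circles left of 0 move towards it, Kmt2a and Kdm2b stay at -1.35 and -2.41, and Ehmt2 moves to 0.66.

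The fold changes ran along the base composition of the transcripts. Across the 35 enzymes the Spearman correlation of log2 fold change with the GC content of the longest GENCODE vM21 transcript was -0.61, and with its length -0.32, against -0.29 and -0.24 over 12520 tested genes. These are descriptions across genes measured in the same libraries, and genes are not independent replicates. The enzymes have long transcripts, with a median of 6654 bases against 3323 over all tested genes, and a median GC content of 48.3% against 49.3%. Kmt2b, Setd1b, Kdm6b, Kdm4b, Kmt2d, Dot1l and Setd1a, at 57.0% to 59.6% GC, had log2 fold changes from -3.07 to -1.30, whereas Ehmt2 at 60.8% was at -0.025 and Kmt2a at 50.6% was at -1.90.

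**Figure D4:**
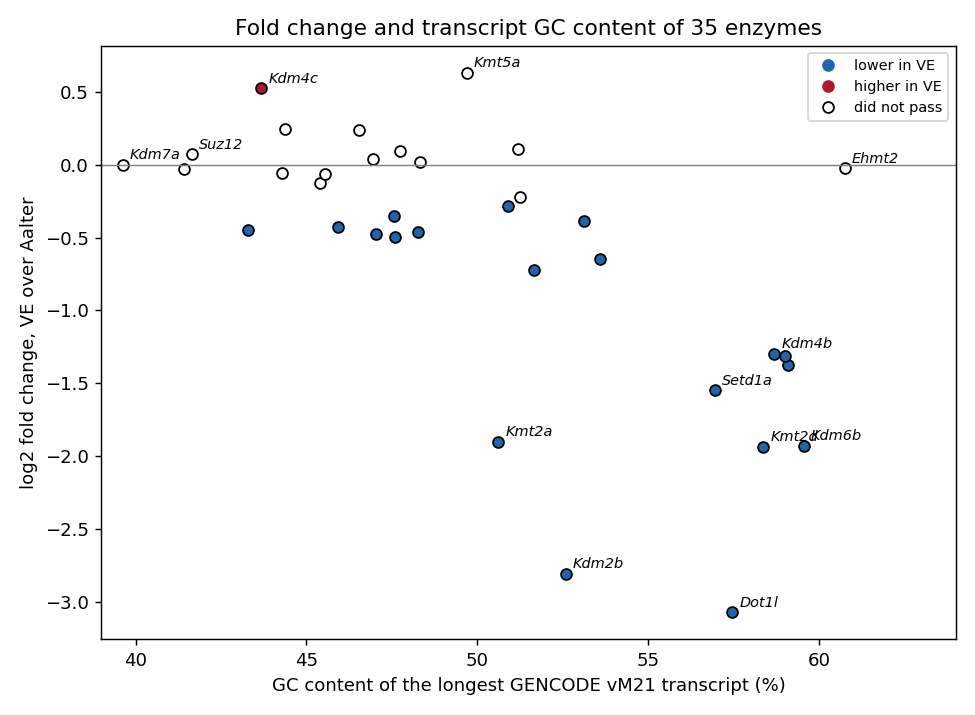
Log2 fold change of 35 enzymes, VE over Aalter, against the GC content (percent) of the longest GENCODE vM21 transcript, with filled points for enzymes past the test. The fold changes under -1 lie at 50.6% GC or more, and Ehmt2 lies near 0 at 60.8%.

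Promoter sequences from RefSeq (GRCm38.p6), 300 bases from before to just after each start, were held for 22 of the 35 enzymes, with 32 starts in all. They are shown for Dot1l and Kmt2a, which fell, and for Ezh2 and Kmt5a, which did not pass. These genes were picked because the pairs differ in the CCAAT box, a motif common in promoters of cell cycle genes. They do not stand for the other enzymes. Capitals mark CCAAT or its reverse ATTGG, and GGGCGG (the GC box) or its reverse CCGCCC. The motifs were picked after the sequences had been read, both strands were searched, and no base below belongs to both motifs.
Dot1l (chr10:80754953-80755252, plus strand): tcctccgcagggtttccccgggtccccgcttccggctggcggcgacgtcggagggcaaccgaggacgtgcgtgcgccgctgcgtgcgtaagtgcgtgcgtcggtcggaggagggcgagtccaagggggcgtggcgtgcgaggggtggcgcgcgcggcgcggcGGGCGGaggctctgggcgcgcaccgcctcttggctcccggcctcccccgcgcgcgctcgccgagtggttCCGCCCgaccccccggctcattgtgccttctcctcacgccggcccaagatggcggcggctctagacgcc
Kmt2a (chr9:44881240-44881539, minus strand): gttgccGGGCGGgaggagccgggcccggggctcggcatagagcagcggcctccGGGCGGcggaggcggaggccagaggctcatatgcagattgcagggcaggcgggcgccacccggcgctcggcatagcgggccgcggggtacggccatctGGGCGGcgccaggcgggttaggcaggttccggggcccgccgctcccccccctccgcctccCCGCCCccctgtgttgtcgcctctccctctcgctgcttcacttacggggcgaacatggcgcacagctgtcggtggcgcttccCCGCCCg
Ezh2 (chr6:47594981-47595280, minus strand): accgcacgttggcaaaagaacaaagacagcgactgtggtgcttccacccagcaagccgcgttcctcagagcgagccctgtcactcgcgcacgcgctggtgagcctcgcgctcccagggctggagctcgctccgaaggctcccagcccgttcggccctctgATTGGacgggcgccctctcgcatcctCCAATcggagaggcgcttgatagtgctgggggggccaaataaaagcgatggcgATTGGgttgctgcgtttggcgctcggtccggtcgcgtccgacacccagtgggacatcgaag
Kmt5a (chr5:124439680-124439979, plus strand, the first of 3 starts): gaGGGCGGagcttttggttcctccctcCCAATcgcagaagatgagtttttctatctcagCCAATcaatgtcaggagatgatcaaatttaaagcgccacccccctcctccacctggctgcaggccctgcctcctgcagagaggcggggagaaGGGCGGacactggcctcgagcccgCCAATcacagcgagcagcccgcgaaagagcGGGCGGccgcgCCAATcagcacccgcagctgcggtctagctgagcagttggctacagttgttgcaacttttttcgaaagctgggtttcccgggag
The CCAAT letters occurred 3 times in the Ezh2 window and 4 times in that of Kmt5a, and were not in those of Dot1l and Kmt2a. The GC box letters occurred 2 times for Dot1l, 5 for Kmt2a and 3 for Kmt5a, and were not in the Ezh2 window. Over all enzymes CCAAT was in 4 of 14 promoters of fallers and in 8 of 18 of the others, a description without a test in which genes with several starts count more than once and some windows of a gene overlap, and CCAAT was in 37.4% of all 32851 promoters. Kmt5a, with CCAAT in each of its 3 starts, counts 3 times among the 8. The fallers Kdm1a, Kdm2b and Kdm4a had CCAAT, while Ehmt1, Ehmt2, Ezh1, Kdm4c, Kdm7a and Setd2, which did not fall, had none. GGGCGG was in 71.9% of the enzymes' promoters and in 60.6% of those of all tested genes (35.7% of all promoters).

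Levels can be set side by side across genes only per transcript length, here as mean CPM per kilobase of the longest transcript. In VE the highest were Kdm6b at 35.8, Kdm7a at 35.5, Suz12 at 32.7 and Eed at 31.8 CPM per kilobase, and the lowest were Setd1b at 1.20, Kmt2d at 1.38, Setd1a at 2.07 and Ehmt1 at 2.09. In the Aalter mean Kdm6b was at 136, Dot1l at 62.5 and Kdm2b at 36.6, above Kdm7a at 35.5 and Suz12 at 31.1, while in VE Dot1l (7.44) and Kdm2b (5.23) were below both. That order did not hold in Aalter-1. There Dot1l (81.0 CPM) and Kdm2b (105 CPM) were below Suz12 (153 CPM), whose longest transcript is the shorter one (4373 bases against 6808 for Dot1l and 5180 for Kdm2b). The level of a gene that uses a shorter transcript is understated on this scale.

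Of 97 measured genes for the enzymes' partners, other lysine methylation enzymes and methyl donor metabolism, 38 fell and 5 rose, with a median log2 fold change of -0.19. Over all tested genes 19.5% fell and 12.8% rose, and the count of each partner list is to be read beside these shares. Noncatalytic subunits of the H3K4 writer complexes (COMPASS), some shared and some found in only certain complexes, fell in 7 of 13 genes, among them the host cell factor Hcfc1 (-1.87 ± 0.24), the core subunit Rbbp5 (-0.69 ± 0.10) and menin, Men1 (-0.87 ± 0.15), which tethers the products of Kmt2a and Kmt2b. Accessory subunits of PRC2 fell in 6 of 8 genes. Aebp2 was at -0.87 ± 0.17 (adjusted p = 0.0126), Jarid2 at -0.45 ± 0.10 (0.0184) and Epop, which couples the complex to elongin, at -1.72 ± 0.30 (0.00995). The summed level of the accessory subunits was 516 to 752 CPM across Aalter and 454 to 456 CPM in VE. Some forms of Polycomb complex 1 read H3K27 methylation. Of 18 genes of this complex in all its forms 7 fell, with Cbx6 (-1.44 ± 0.16), Phc3 (-0.59 ± 0.094) and Phc2 (-1.37 ± 0.23) first by p, and Bmi1 rose (0.38 ± 0.12, named after its value was seen).

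Partners of LSD1 gave 2 fallers among 7, Gse1 (-2.54 ± 0.31) and the corepressor Rcor1 (-0.77 ± 0.18), and 1 riser, Hmg20b (0.39 ± 0.12). Among 6 partners of DOT1L in transcription elongation 3 fell, which were Aff1 (-0.99 ± 0.14), Mllt6 (-0.63 ± 0.10) and Mllt1 (-1.04 ± 0.19). The H3K9 methyl readers of the HP1 family were Cbx1, Cbx3 and Cbx5, of which Cbx3 rose (0.53 ± 0.14). Other methyltransferases fell in 5 of 19 genes, with Prdm15 (-0.83 ± 0.17), Smyd5 (-0.91 ± 0.22) and Setd5 (-0.44 ± 0.11) first by p, while the H3K9 trimethylating pair Suv39h1 (-0.016 ± 0.11) and Suv39h2 (0.14 ± 0.26) and the H4K20 writer Kmt5c (-0.27 ± 0.19) did not pass, nor did Setd7 (-0.45 ± 0.17), known as an H3K4 monomethylase and named after its value was seen. Of 14 other demethylases 4 fell. Kdm5c, the X-linked relative of Kdm5a, fell by 1.55 ± 0.25 on the log2 scale, and Riox1 by 1.17 ± 0.23. Hr, the hairless corepressor, fell from 16, 64 and 73 counts in Aalter to 4, 3 and 2 in VE, too few for a firm fold. Kdm6a, the X-linked relative of Kdm6b, was at -0.13 ± 0.094 (adjusted p = 0.308) and Jmjd1c at 0.23 ± 0.13 (0.204).

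Of 9 genes that supply the methyl donor or the cofactor of the Jumonji erasers, 4 fell and 1 rose. Ogdh, which consumes alpha-ketoglutarate, was at -0.64 ± 0.17, and Idh1, which makes it, rose (0.43 ± 0.11). Mat2a, the synthase of S-adenosylmethionine outside the liver, named after its value was seen, fell with 133, 266 and 259 CPM in Aalter against 116, 117 and 110.5 CPM in VE (log2 fold change of -0.94 ± 0.25, adjusted p = 0.0300). As in Dot1l, its level in Aalter-1 was near that of VE. Over all partner lists 45 genes fell and 20 rose without Aalter-1, where 28.5% and 27.8% of all tested genes did so. Without Aalter-2, Aalter-3, VE-1, VE-2 and VE-3, 15, 10, 6, 1 and 10 fell, against 6.29%, 4.85%, 3.56%, 1.36% and 6.22% of all tested genes. After removal of the trends on GC content and length 22 fell and 8 rose, against 12.7% and 13.5%. Of the fallers named above, Jarid2 (-0.14), Mllt6 (0.13), Setd5 (-0.13), Rcor1 (-0.58), Prdm15 (-0.49) and Ogdh (-0.36) lost their calls there. So did the risers Bmi1 (0.18), Cbx3 (0.20) and Idh1 (0.12), while the other named fallers and Hmg20b kept theirs.

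Markers of several cell types moved with the same groups. Over all tested genes 12.8% rose and 19.5% fell, and the count of each marker list is to be read beside these shares. Of the neutrophil markers 8 of 10 rose, with a summed level of 25750 to 30045 CPM across Aalter and 36473 to 44499 CPM in VE. Among those of monocytes and macrophages 7 of 8 rose (4296 to 5720 CPM across Aalter and 7401 to 7629 CPM in VE). Lymphocyte markers were mostly lower, as 6 of 8 fell for B cells (278 to 333 CPM across Aalter and 204 to 230.1 CPM in VE), 5 of 8 fell and 1 rose for T cells (703 to 872 CPM across Aalter and 581 to 694 CPM in VE) and 4 of 6 fell and 1 rose for natural killer cells (594 to 673 CPM across Aalter and 587 to 869.7 CPM in VE). Alveolar macrophage markers fell in 5 of 8 (251 to 431 CPM across Aalter and 206 to 222 CPM in VE), lung epithelial markers in 2 of 8 with 2 that rose (261 to 429.6 CPM across Aalter and 201 to 212 CPM in VE) and endothelial and fibroblast markers in 1 of 8 with 1 that rose (106 to 120.2 CPM across Aalter and 113 to 131 CPM in VE). Without Aalter-1, 8 neutrophil and 8 monocyte and macrophage markers rose, and 7 B cell, 5 T cell, 4 natural killer cell and 6 alveolar macrophage markers fell. Without one of the other libraries these counts were 0 to 1, 0 to 0, 1 to 4, 1 to 3, 1 to 2 and 0 to 0, in the same order. Of all tested genes 27.8% rose and 28.5% fell without Aalter-1, and 1.36% to 6.29% fell without one of the other libraries. The share that rose without one of the other libraries is not given. The low counts of neutrophil, monocyte and macrophage markers there are therefore not read as particular to these cells. No marker was at 0 in any library. The part of these cell types in the levels of the histone methylation enzymes was not tested.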

How the data were processed

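RNA libraries were made from total RNA with an mRNA kit, per the labels' protocols. The table deposited by the authors gives an estimated count for each gene in each library, unscaled and not always whole, as its values show. The build was mm10, per the submitters' processing notes, while the aligner, the counter and whether strand was used were not given in the sources used here. Columns named Aa were taken as Aalter by name and number. Counts were rounded and tested with edgeR 4.0.16 (R 4.3.3) by robust quasi-likelihood fits of the group on the 6 libraries, after filterByExpr and TMM scaling, two-sided and with Benjamini-Hochberg adjustment. CPM use TMM-scaled library sizes. SE is the log2 fold change over the square root of F, and 95% intervals use the t distribution. Genes varied between libraries of a group by a common coefficient of 0.210, and a count of 3 equals 0.185 to 0.258 CPM, for counting error only.

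Other settings tried were DESeq2 1.42.0, limma-voom 3.58.1, RLE or library-size scaling, other filters, a replicate block, omitted libraries, and offsets that remove each library's spline trends (5 degrees of freedom) on GC content and length of the longest GENCODE vM21 transcript, known for 99.8% of tested genes. Library pairs of 1 group differed beyond sampling noise (median chi-square of at least 0.696 against 0.455). Tested on simulated data of this comparison over 12402 genes, the test recovered 49.0% of log2 changes of 1 and 91.2% of 2. Of the calls 6.99% were false. Changes were set in 200 genes and no library was made to stand apart, while 32.3% of genes passed in the data. Recovery in the data may therefore differ. Every enzyme was named, with up to 3 genes by p for each partner list and a few fixed genes, except for a gene that is not reported here. The members, lists and alternatives were chosen with earlier results of these data known. Counts may be shared with overlapping genes on the other strand, most for Kmt2e (Srpk2, 9.31% of its exon bases) and Kdm2b (Rnf34, 5.77%), and on the same strand for Setd1a (Gm49388, 51.8%, mean count 0.307).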

Additional observations from a re-analysis of the deposited data

How the results depend on the processing

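With one library left out in turn, 3 to 19 enzymes fell and 0 to 5 rose, 1 to 45 partner genes fell and 0 to 20 rose, and 177 to 3652 of all genes fell and 2 to 3561 rose, against 19, 1, 38, 5, 2442 and 1612 with all libraries. The lowest counts came without VE-2 and the highest, but for the fallers among the enzymes, which stayed at 19, without Aalter-1. After removal of the GC content and length trends, 7 enzymes fell and 3 rose, 22 partner genes fell and 8 rose, and 1588 of all genes fell. Without Aalter-1 as well, a setting added after seeing the data, 8 enzymes, 21 partner genes and 3351 of the 12804 tested genes rose. The 15 enzymes that fell there are given without a share over all genes, and are not read as particular to the enzymes. Without both libraries numbered 1, 4 enzymes, 19 partner genes and 3404 of all genes rose. With library size alone, which lowers the median log2 fold change of all genes from 0.023 to -0.12, 0 enzymes, 0 partner genes and 495 of all genes rose. The 19 enzymes that fell with it are given without a share over all genes, and are not read as particular to the enzymes. DESeq2 and limma-voom each gave 2 enzymes that rose, and 3 partner genes rose without a filter on low counts. These counts, too, are given without a share over all genes and are not read as particular to these genes. The sign of the log2 fold change reversed in several enzymes, of which Kmt2c, Prdm2 and Kdm3b had passed in the fit on the groups alone. It did so with the trends removed for Kmt2c (0.032), Setd2 (0.12), Nsd2 (0.076), Ash1l (0.14), Ezh1 (0.00019), Ezh2 (-0.036), Suz12 (-0.0071), Eed (-0.11), Ehmt2 (0.66), Prdm2 (0.11) and Kdm3b (0.084). It did so with the block and the trends removed for Kmt2c (0.031), Setd2 (0.12), Nsd2 (0.079), Ash1l (0.14), Ezh1 (0.012), Ezh2 (-0.040), Suz12 (-0.0057), Eed (-0.11), Ehmt2 (0.67), Prdm2 (0.11) and Kdm3b (0.085). It did so with the trends removed and without Aalter-1 for Kmt2c (0.070), Setd2 (0.22), Nsd2 (0.16), Ash1l (0.17), Ezh1 (0.18), Ezh2 (-0.055), Eed (-0.17), Ehmt2 (0.83), Prdm2 (0.16) and Kdm3b (0.16). It did so without both libraries numbered 1 for Setd2 (0.029), Nsd2 (0.16), Eed (-0.021), Ehmt2 (0.060) and Kdm7a (-0.058). It did so with library size alone for Nsd3 (-0.11), Suz12 (-0.069), Eed (-0.043), Ehmt1 (-0.038), Setdb1 (-0.13) and Kdm7a (-0.14). Kdm7a reversed with RLE scaling (-0.0051), DESeq2 (-0.0049) and no filter (-0.0033). With one library left out, signs changed in Eed (-0.0054 to 0.16), Ehmt1 (-0.066 to 0.33), Ehmt2 (-0.10 to 0.051), Kdm7a (-0.053 to 0.038), Nsd2 (-0.12 to 0.11), Nsd3 (-0.017 to 0.10), Setd2 (-0.15 to 0.091) and Setdb1 (-0.094 to 0.17). The cause of these changes was not tested. With the replicate block 15 enzymes fell and 1 rose, which was Kmt5a. The calls of Kdm4c, Dot1l, Kdm6b, Kmt2c and Prdm2 were lost there (adjusted p of 0.0536, 0.0751, 0.0738, 0.0531 and 0.0956). With the trends also removed 6 enzymes fell and 3 rose, where 16 partner genes and 1288 of the 12551 tested genes fell. The counts of the block alone, and the risers with the trends also removed, are given without a share over all genes. They are not read as particular to the enzymes. Deviations of same-numbered libraries from their group means correlated at 0.30, 0.27 and 0.055 across genes, and Aalter-3 correlated best with VE-2 (0.15). Deviations from a mean of 3 libraries depend on each other, so these values cannot decide whether the numbers pair the libraries. The labels do not say that they do, and the main fit therefore took no pairs.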

Other observations

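The Y-linked relatives of the X-linked demethylases were chosen after their values were seen. Uty, the relative of Kdm6a, had 173, 59 and 114 estimated counts in Aalter against 190, 146 and 289 in VE (log2 fold change of 1.03 ± 0.30, adjusted p = 0.0396). Kdm5d, the relative of Kdm5c, had 165, 56 and 63 estimated counts in Aalter against 148, 124 and 193 in VE (log2 fold change of 0.88 ± 0.36, adjusted p = 0.0954). Relative to library size, Aalter-2 and Aalter-3 were the lowest libraries in both genes.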
